A study of Homo sapiens with 12 samples.

Results

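CXC chemokines are small secreted proteins in which 1 residue separates the first pair of conserved cysteines, and they steer leukocytes through receptors of the CXCR family. The set described here holds 9 such genes, listed by symbol and not chosen by any threshold: CXCL1, CXCL2, CXCL3, CXCL5, CXCL8, CXCL9, CXCL10, CXCL11 and CXCL16. All 9 were found among the 57500 genes of the deposited count tables, and 8 of them were among the 16402 genes with enough counts to be fitted. CXCL5 was left out of the fit for low counts and is described by its counts alone. The set falls into 3 kinds. CXCL1, CXCL2, CXCL3, CXCL5 and CXCL8 (interleukin-8) carry the Glu-Leu-Arg motif before the cysteines and attract neutrophils through CXCR2, and CXCL8 also through CXCR1. CXCL9, CXCL10 and CXCL11 are interferon-inducible ligands of CXCR3 on activated T cells and natural killer cells. CXCL16 is made as a transmembrane protein that binds CXCR6 and is shed from the cell surface. In monocytes, LPS acts through TLR4 along a MyD88 branch to NF-kappaB and a TRIF branch to IRF3 and type I interferon, and both branches are known to feed chemokine genes.

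The cells were of the established cell line THP-1, which derives from a human monocytic leukaemia, and every group carried a lentiviral non-target shRNA, so no library came from untransduced cells. They were held for 4 h in buffered medium in a gas chamber at 5% CO2 (normocapnia) or 10% CO2 (buffered hypercapnia). LPS at 2.5 µg/ml was present for the last 2 h or was absent, which gave 4 groups: 5% CO2 alone, 5% CO2 with LPS, 10% CO2 alone and 10% CO2 with LPS. Each of them had 3 libraries of poly(A)-selected RNA, 12 in all, and the study asked how CO2 changes transcription with and without the inflammatory stimulus.

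Total counts were 17.1 to 22.2 M a library. All 10 monocyte genes of a marker list (among them LYZ, CD33, SPI1 and CSF1R) were in the fit, with summed levels of 1379 to 1953 CPM (counts scaled to the library size, with TMM normalization) over the 12 libraries. Lists for T cells, B cells, epithelial cells and fibroblasts summed to at most 2.22, 5.61, 3.01 and 4.01 CPM, and CD3E, CD2, MS4A1 and KRT19 never exceeded 3 counts in a library. An endothelial list summed to 201 to 415 CPM. Its member PECAM1 is also known on monocytes, but the part of each gene in that sum is not given here. The mitochondrial share of counts was 1.31% to 1.96% at 5% CO2 and 1.28% to 1.78% at 5% CO2 with LPS, against 2.01% to 3.05% at 10% CO2 and 2.28% to 4.15% at 10% CO2 with LPS. This share thus separated the CO2 levels, and its part in the CO2 results below was not tested.

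Of the 9 genes, 8 lie on chromosome 4 in a pair of clusters, which hold the neutrophil attractants and the CXCR3 ligands. A table of RefSeq promoters on GRCh38.p14 matched 8 members, CXCL16 being the one without an entry. The stretches ending 1 base before the RefSeq transcript start are printed because 7 of these 8 genes rose with LPS, CXCL5 being the one that did not pass the expression filter. They run 5′ to 3′ along the gene's own strand, and capitals mark 3 letter patterns searched on both strands of 250 bases before to 50 bases after each start. The patterns are GGAATTTCC (a form of the NF-kappaB site, reading GGAAATTCC on the other strand), the letters GAAA, any 2 bases and GAAA again (a core of the interferon-stimulated response element, ISRE) and TGANTCA (AP-1). None of the patterns contains another, and the letters were chosen after the promoters had been seen.
CXCL8 (chr4:73740419-73740568, plus strand): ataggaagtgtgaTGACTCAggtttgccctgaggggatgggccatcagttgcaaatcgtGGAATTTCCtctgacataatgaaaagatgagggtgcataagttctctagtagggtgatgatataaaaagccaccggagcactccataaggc
CXCL1 (chr4:73869273-73869392, plus strand): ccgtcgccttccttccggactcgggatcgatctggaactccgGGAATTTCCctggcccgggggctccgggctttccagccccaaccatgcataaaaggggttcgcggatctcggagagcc
CXCL2 (chr4:74099196-74099315, minus strand): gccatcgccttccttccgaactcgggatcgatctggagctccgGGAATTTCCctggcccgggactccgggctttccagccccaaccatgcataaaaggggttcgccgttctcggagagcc
CXCL3 (chr4:74038690-74038809, minus strand): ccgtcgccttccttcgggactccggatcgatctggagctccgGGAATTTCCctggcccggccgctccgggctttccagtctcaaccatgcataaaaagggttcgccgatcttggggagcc
CXCL5 (chr4:73998678-73998797, minus strand): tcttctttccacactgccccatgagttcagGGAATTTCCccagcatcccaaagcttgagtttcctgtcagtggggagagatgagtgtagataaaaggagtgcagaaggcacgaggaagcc
CXCL9 (chr4:76007510-76007689, minus strand): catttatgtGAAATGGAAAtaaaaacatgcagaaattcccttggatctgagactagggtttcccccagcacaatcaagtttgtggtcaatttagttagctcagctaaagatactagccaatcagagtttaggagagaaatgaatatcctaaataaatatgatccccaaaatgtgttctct
CXCL10 (chr4:76023498-76023727, minus strand): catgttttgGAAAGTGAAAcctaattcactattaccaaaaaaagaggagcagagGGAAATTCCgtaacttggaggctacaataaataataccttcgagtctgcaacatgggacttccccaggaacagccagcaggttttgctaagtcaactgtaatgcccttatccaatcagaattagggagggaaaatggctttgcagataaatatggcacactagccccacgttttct
CXCL11 (chr4:76036071-76036170, minus strand): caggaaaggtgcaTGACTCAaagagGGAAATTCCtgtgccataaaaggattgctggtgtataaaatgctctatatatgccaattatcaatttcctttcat

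GGAATTTCC was present in 7 of the 8 promoters, all but that of CXCL9, against 0.461% of 35116 promoters of the same length. In the 5 neutrophil attractant genes it began 77 to 91 bases upstream of the start, in CXCL11 at 75 and in CXCL10 at 176. The ISRE letters occurred in 2 of the 8, at 171 bases upstream in CXCL9 and at 221 in CXCL10, against 3.57% of all promoters. TGANTCA occurred in 2 of the 8, CXCL8 and CXCL11, against 7.71%. The 250 bases before the start were 81.4% identical between CXCL1 and CXCL3, 73.3% between CXCL2 and CXCL3, and 71.4% between CXCL1 and CXCL2, in pairwise alignments that count gaps as columns. These neighbours are alike in sequence, so their matches are not independent of each other. CXCL5, whose promoter held the same letters, had hardly any counts in any group, as given below. The gene models of the count tables begin upstream of the RefSeq start for 5 of the 8 genes (CXCL2, CXCL3, CXCL5, CXCL8 and CXCL11).

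LPS raised 7 of the 8 fitted CXC chemokines at both CO2 levels, all but CXCL16. A gene was called where its p from edgeR's quasi-likelihood test, adjusted over all tested genes by Benjamini and Hochberg's method, was under 0.05. Among all tested genes, 11.8% were called higher with LPS at 5% CO2 and 16.6% at 10% CO2. The median log2 change of the 8 fitted members was 7.83 at 5% CO2 and 8.51 at 10% CO2, beside -0.01 and -0.02 over all genes. All 3 LPS libraries lay above all 3 libraries without LPS for 7 of 8 members at each CO2 level, a pattern that 18.9% of all tested genes showed at 5% CO2 and 21.9% at 10% CO2. In these bulk libraries, more RNA in each cell and a larger share of cells that express a gene cannot be told apart.

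CXCL8 (ENSG00000169429, GRCh38 chromosome 4, 73740506 to 73743716, plus strand) encodes the main neutrophil attractant of human monocytes and was the most abundant member per length in every group. At 5% CO2 its 3 libraries had 21.4, 15.7 and 10.7 CPM, and at 10% CO2 they had 11.02, 9.43 and 9.76 CPM. With LPS the libraries reached 4022, 3352 and 2900 CPM at 5% CO2 and 3740, 3467 and 3152 CPM at 10% CO2. Every LPS library was thus far above every library without LPS. The fitted log2 change with LPS was 7.74 ± 0.25 (SE, edgeR adjusted p = 5.97e-10) at 5% CO2 and 8.42 ± 0.26 (3.11e-10) at 10% CO2, folds of 214 and 343.

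CXCL1 (ENSG00000163739, chromosome 4, 73869393 to 73871242, plus strand), CXCL2 (ENSG00000081041, 74097035 to 74099293, minus strand) and CXCL3 (ENSG00000163734, 74036589 to 74038807, minus strand) encode the closely related GRO proteins, ligands of CXCR2. CXCL1 had 1.27, 1.05 and 0.650 CPM at 5% CO2 and 0.774, 0.760 and 0.574 CPM at 10% CO2. With LPS it had 285, 178 and 254 CPM at 5% CO2 and 361, 308 and 270 CPM at 10% CO2. The libraries with LPS lay far above those without, while those of the CO2 levels overlapped in both states. The log2 change of CXCL1 with LPS was 7.91 ± 0.24 (SE, edgeR adjusted p = 2.82e-12) at 5% CO2 and 8.79 ± 0.25 (1e-12) at 10% CO2.

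CXCL2 had 0.994, 0.386 and 0.928 CPM at 5% CO2 and 0.547, 1.01 and 0.397 CPM at 10% CO2. The LPS libraries had 276, 238 and 265 CPM at 5% CO2 and 265, 252 and 237 CPM at 10% CO2, and the CO2 levels overlapped there too. The log2 change of CXCL2 with LPS was 8.35 ± 0.19 (SE, edgeR adjusted p = 2.02e-16) at 5% CO2 and 8.60 ± 0.20 (1.5e-16) at 10% CO2. CXCL3 had 7, 1 and 6 counts at 5% CO2 and 4, 8 and 2 counts at 10% CO2, close to the floor of 3 counts below which a gene is not told from 0. With LPS its level was 137, 103 and 145 CPM at 5% CO2 and 169, 170 and 156 CPM at 10% CO2. From the summed counts of each group, the ratio with LPS was 568 (exact 95% interval 338 to 1040) at 5% CO2 and 755 (449 to 1381) at 10% CO2, intervals that cover counting error only. The edgeR adjusted p of CXCL3 was 9.49e-15 and 4.08e-15. The CXCL2 and CXCL3 transcripts share sequence: 7.3% of all 75-base windows in the CXCL2 exons occur in CXCL3, and 4.8% of those in CXCL3 occur in CXCL2. How the authors' counting treated reads that map to both is not given in the sources used here, so a small part of either gene's counts is uncertain.

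**Figure D1:**
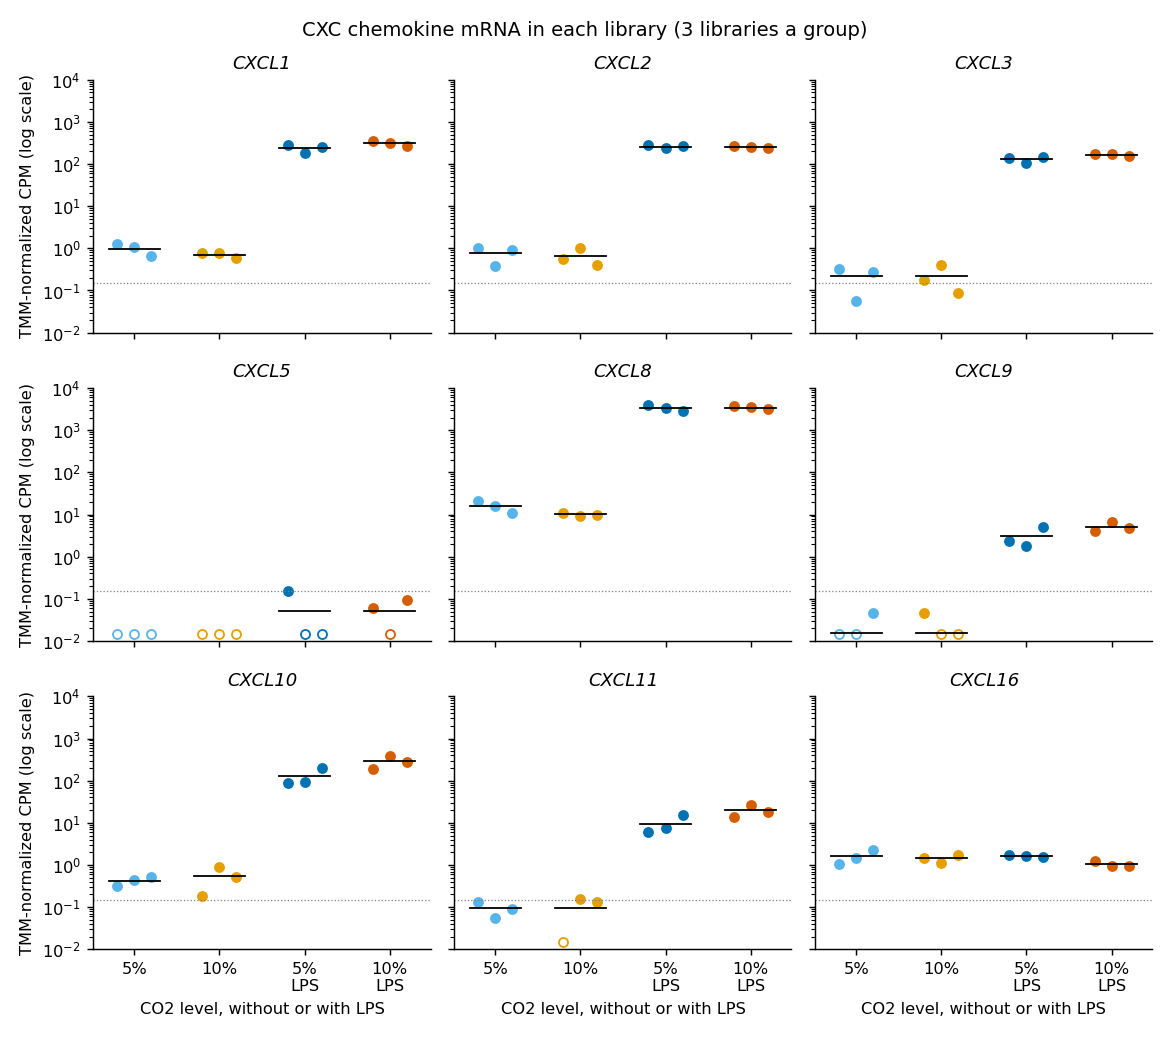
Levels of the 9 CXC chemokines in each of the 12 libraries, as TMM-normalized CPM on a log axis, with 1 panel a gene. Points are libraries, bars are group means, open points at the bottom are libraries with 0 counts, and the dotted line is the floor of 3 counts at the mean depth. Libraries with LPS lie far above those without for 7 genes, CXCL16 stays between 0.954 and 2.32 CPM throughout, and CXCL5 does not rise above 3 counts.

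CXCL5 (ENSG00000163735, chromosome 4, 73995642 to 73998779, minus strand) encodes epithelial neutrophil-activating peptide 78, another CXCR2 ligand, best known from epithelial cells and platelets. It had 0 counts in each of the 6 libraries without LPS, which allows up to 0.136 to 0.165 CPM at 5% CO2 and 0.133 to 0.152 CPM at 10% CO2. The LPS libraries had 3, 0 and 0 counts at 5% CO2 and 1, 0 and 2 counts at 10% CO2. All 12 libraries were therefore at or under the floor, and no fold is given. The exact two-sided permutation test gave p = 1.0 for LPS at 5% CO2, 0.4 at 10% CO2 and 1.0 for CO2 with LPS, where the smallest p that 3 against 3 allows is 0.1. A response of CXCL5 was not detectable at this depth, and any level above the floor with LPS would exceed 0.148 to 0.156 CPM at 5% CO2 and 0.143 to 0.179 CPM at 10% CO2.

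The CXCR3 ligands started from lower counts. CXCL10 (ENSG00000169245, chromosome 4, 76021117 to 76023497, minus strand), known as interferon gamma-induced protein 10, had 7, 8 and 11 counts at 5% CO2 and 4, 18 and 12 counts at 10% CO2. With LPS it reached 89.6, 94.7 and 200 CPM at 5% CO2 and 193, 385 and 283 CPM at 10% CO2. Its log2 change with LPS was 8.23 ± 0.61 (SE, edgeR adjusted p = 9.58e-06) at 5% CO2 and 9.06 ± 0.59 (2.57e-06) at 10% CO2. The standard error of CXCL10 was larger than that of any neutrophil attractant in the fit, and its LPS libraries spread more widely around their means, as given below.

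CXCL11 (ENSG00000169248, 76033682 to 76041415, minus strand), the CXCR3 ligand with the highest affinity, had 3, 1 and 2 counts at 5% CO2 and 0, 3 and 3 counts at 10% CO2, all at or under the floor. With LPS it had 114, 144 and 313 counts at 5% CO2 and 237, 446 and 386 counts at 10% CO2. The ratio of summed counts with LPS was 99.8 (exact 95% interval 45.6 to 273) at 5% CO2 and 210 (96.1 to 573) at 10% CO2. CXCL9 (ENSG00000138755, 76001275 to 76007488, minus strand), the monokine induced by interferon gamma, had 0, 0 and 1 counts at 5% CO2 and 1, 0 and 0 counts at 10% CO2, again under the floor. In the LPS libraries it had 46, 35 and 102 counts at 5% CO2 and 68, 110 and 98 counts at 10% CO2. The ratio with LPS was 192 (34.0 to 7624) and 325 (57.9 to 12890), so that a single count in each group sets its upper bound. Both genes were called higher with LPS at each CO2 level, with edgeR adjusted p = 1.08e-05 and 1.01e-06 for CXCL11 and 6.55e-07 and 4.6e-08 for CXCL9. Their fitted log2 changes depend on the prior count and are shown only in the plot of changes with LPS. The genes that overlap CXCL9, CXCL10 and CXCL11 on the genome share no exon base with them and had at most 3 counts in any library.

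**Figure D2:**
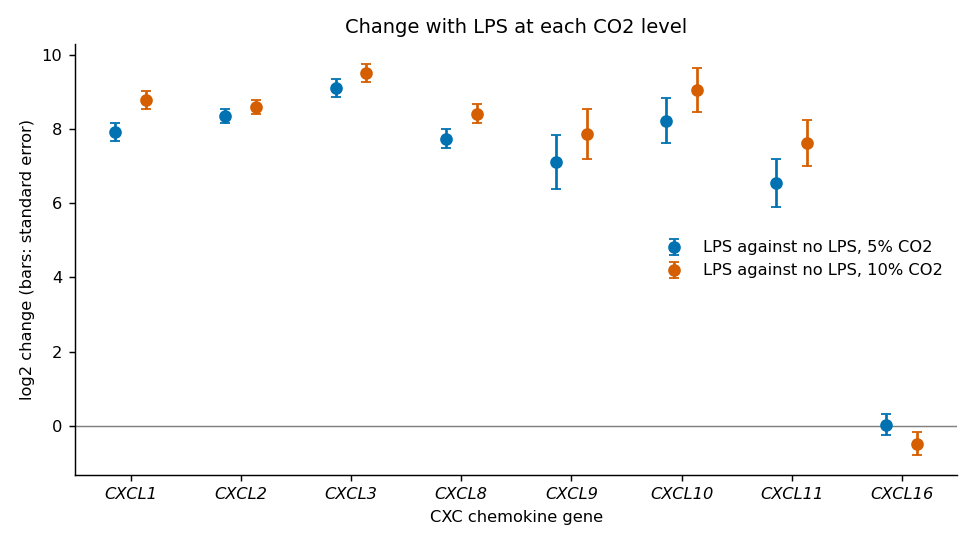
Fitted log2 change with LPS of the 8 fitted CXC chemokines at 5% CO2 and at 10% CO2, with bars of 1 standard error. CXCL1, CXCL2, CXCL3, CXCL8 and CXCL10 lie between 7.74 and 9.52, CXCL16 lies at 0.03 and -0.49, and the values of CXCL9 and CXCL11 depend on the prior count since their libraries without LPS were at or under 3 counts.

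CXCL16 (ENSG00000161921, chromosome 17, 4733526 to 4739922, minus strand) did not pass the test with LPS at either CO2 level. It had 1.04, 1.49 and 2.32 CPM at 5% CO2 and 1.503, 1.12 and 1.77 CPM at 10% CO2. The LPS libraries had 1.77, 1.60 and 1.57 CPM at 5% CO2 and 1.24, 0.957 and 0.954 CPM at 10% CO2. The log2 change with LPS was 0.03 ± 0.29 (SE, edgeR adjusted p = 0.964) at 5% CO2 and -0.49 ± 0.31 (0.246) at 10% CO2. The libraries overlapped in both comparisons. The gene overlaps MED11 on the opposite strand by 85 exon bases. MED11 had 48 to 114 counts a library and CXCL16 had 16 to 50, and without a stated strand setting their shared reads cannot be told apart.

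The order of levels was compared per length, as CPM per kilobase of exon. At 5% CO2, CXCL8 led with 7.01 ± 2.35 (SD, n = 3), and its libraries lay apart from those of the next gene. CXCL1 (0.762), CXCL16 (0.578), CXCL2 (0.513) and CXCL10 (0.359) followed, with each neighbouring pair overlapping. CXCL3 (0.0976) lay apart from CXCL10 above and overlapped with CXCL11 (0.0495), which was followed by CXCL9 (0.00565) and by CXCL5 at 0. Without LPS, CXCL11 and CXCL9 were at or under the floor of 3 counts in every library, so their places are not told apart. The order of the means at 10% CO2 was the same except that CXCL10 (0.461) stood before CXCL2 (0.435), a pair that overlapped. At 5% CO2 with LPS the order was CXCL8 (1506 ± 248 CPM per kb), CXCL1 (185), CXCL2 (173), CXCL10 (109), CXCL3 (57.9), CXCL11 (5.03), CXCL9 (1.12), CXCL16 (0.590) and CXCL5 (0.0205). Only the neighbours CXCL1 and CXCL2, and CXCL2 and CXCL10, overlapped there. At 10% CO2 with LPS, CXCL10 (244 ± 81.6) stood in the second place after CXCL8 (1518 ± 129), and it overlapped with CXCL1 (242 ± 35.6) next to it. CXCL1 lay apart from CXCL2 (167) in that group, where it overlapped with it at 5% CO2 with LPS.

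Summed over the 9 genes, the level per length was 9.38 ± 2.34 CPM per kb (SD, n = 3) at 5% CO2 and 6.55 ± 0.33 at 10% CO2. With LPS the sum was 2037 ± 241 and 2258 ± 159. CXCL8 supplied 73.7% ± 7.86 of it at 5% CO2, 67.8% ± 6.57 at 10% CO2, 73.7% ± 5.57 at 5% CO2 with LPS and 67.2% ± 2.59 at 10% CO2 with LPS. The share of CXCL8 was thus alike before and after LPS although its own level rose 214-fold and 343-fold. CXCL10 supplied 5.50% ± 3.04 at 5% CO2 with LPS and 10.8% ± 3.53 at 10% CO2 with LPS, ranges of 3.29% to 8.96% and 6.98% to 13.9% that overlap. CXCL16 fell from 6.83% ± 4.202 to 0.0291% ± 0.0015 of the sum at 5% CO2, since the other genes rose around it. These shares are descriptions and were not tested.

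**Figure D3:**
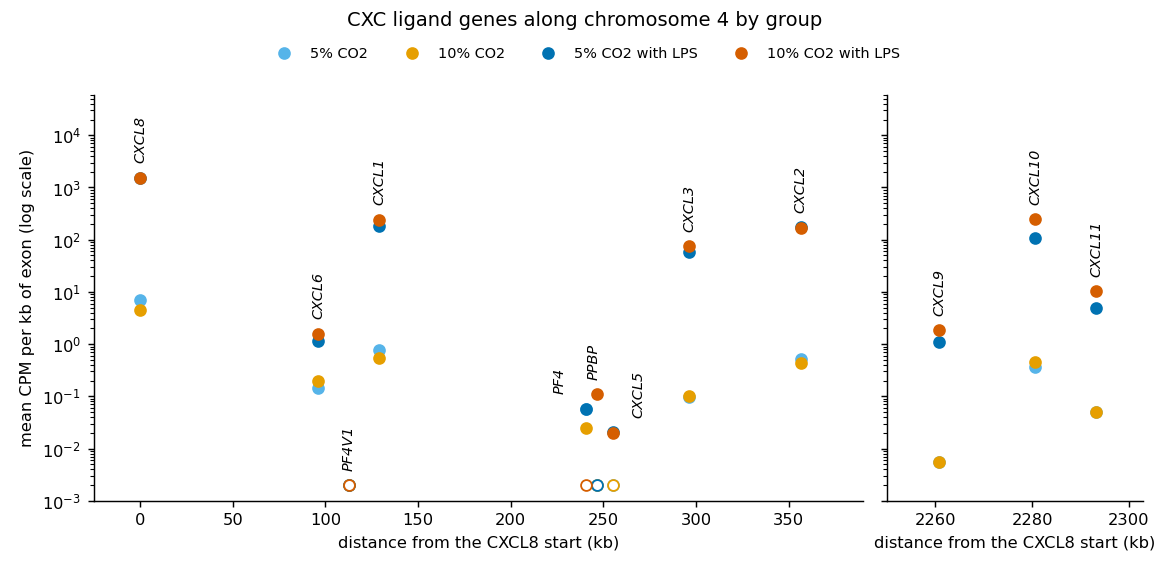
Mean level per length (CPM per kb of exon, log axis) of the CXC ligand genes of chromosome 4 in the 4 groups, by distance in kb from the start of CXCL8, with the gap between the clusters left out. Open points at the bottom mark groups with 0 counts. PF4V1, PF4, PPBP and CXCL5 stay at a few counts, while CXCL8, CXCL1, CXCL3 and CXCL2 around them reach 57.9 to 1518 CPM per kb with LPS.

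From the start of CXCL8, its neighbour CXCL6 lay at 96.0 kb, CXCL1 at 129 kb, CXCL5 at 255 kb, CXCL3 at 296 kb and CXCL2 at 357 kb, and the CXCR3 ligands lay from 2261 to 2293 kb. The platelet chemokine genes PF4V1, PF4 and PPBP, at 113, 241 and 247 kb, had at most 3 counts in any library. Of 8 other CXC ligands on a list of the family, 2 were in the fit and both rose with LPS. CXCL6, a further CXCR2 ligand, changed by 2.93 ± 0.52 on the log2 scale (SE, edgeR adjusted p = 4.86e-04) at 5% CO2 and 2.97 ± 0.48 (1.32e-04) at 10% CO2. CXCL12, the CXCR4 ligand, changed by 2.62 ± 0.37 (3.57e-05) and 3.19 ± 0.34 (1.1e-06). Both were far below the CXCL1 to CXCL3 genes, at 1.14 and 0.710 CPM per kb at 5% CO2 with LPS. CXCL17 also stayed at 3 counts or fewer in every library.

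Without LPS, no CXC chemokine was called between 10% and 5% CO2 by edgeR. Of the 8 fitted members 0 passed the adjusted test, 1 had an unadjusted p under 0.05, and DESeq2 called 1, in each case CXCL8. The share of all genes called in this comparison was 1.46%. CXCL8 was lower at 10% CO2 in its mean (10.1 ± 0.841 against 15.9 ± 5.35 CPM, SD, n = 3). The 10.7 CPM of 5% CO2 replicate 3 lay below the 11.02 CPM of the highest library at 10% CO2, so the groups overlapped. Its log2 change was -0.66 ± 0.22 (SE, edgeR adjusted p = 0.153). Without 5% CO2 replicate 3 the change was -0.89 with an edgeR adjusted p of 0.0231. That library was the lowest of the group with the higher mean, so leaving it out must widen the difference. DESeq2 gave an adjusted p of 0.0122 on all libraries. CXCL1 (-0.49 ± 0.41, edgeR adjusted p = 0.573), CXCL2 (-0.30 ± 0.34, 0.681) and CXCL16 (-0.14 ± 0.29, 0.85) had negative values of about the size of their standard errors or smaller. For CXCL3 (-0.05 ± 0.62, 0.978) and CXCL10 (0.33 ± 1.18, 0.925) the standard error was far larger than the value. CXCL9 and CXCL11 were at or under the floor in all 6 libraries and have no fold here.

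With LPS, 0 of the 8 fitted members were called by edgeR between 10% and 5% CO2, 5 had an unadjusted p under 0.05, and DESeq2 called 2. The share of all genes called by edgeR in this comparison was 8.75%. The median log2 change of the 8 was 0.37, beside -0.01 over all genes. The 3 CXCR3 ligands had the largest values: 1.16 ± 0.35 for CXCL10 (SE, edgeR adjusted p = 0.0766), 1.03 ± 0.33 for CXCL11 (0.0719) and 0.72 ± 0.31 for CXCL9 (0.163). CXCL10 averaged 128 ± 62.0 CPM (SD, n = 3) at 5% CO2 with LPS and 287 ± 95.9 CPM at 10% CO2 with LPS, and CXCL11 averaged 9.59 ± 5.09 and 19.7 ± 6.42 CPM. DESeq2 called CXCL11 (adjusted p = 0.0162) and CXCL3 (0.0464).

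In 1 library of 5% CO2 with LPS the CXCR3 ligands overlapped with 10% CO2 with LPS. At 5% CO2 with LPS, replicate 3 was the highest of its group for CXCL9 (5.02 CPM against 2.39 and 1.81), CXCL10 (200 CPM against 89.6 and 94.7) and CXCL11 (15.4 CPM against 5.92 and 7.44). For CXCL10 and CXCL11 it stood above 10% CO2 with LPS replicate 1, at 193 and 14.01 CPM, and below the other two libraries of that group. The same library was the lowest of its group for CXCL8. Without it, edgeR called CXCL9 (log2 change 1.28, adjusted p = 0.0122), CXCL10 (1.64, 0.00493) and CXCL11 (1.56, 0.00132) higher at 10% CO2. That fit called 1804 genes, against 1435 with all 12 libraries. Leaving out the highest library of the group with the lower mean must widen these differences. CXCL11 was also called without 10% CO2 with LPS replicate 1 (1.23, 0.0479), the lowest library of its group for that gene. All 12 libraries stand in the values before this paragraph.

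**Figure D4:**
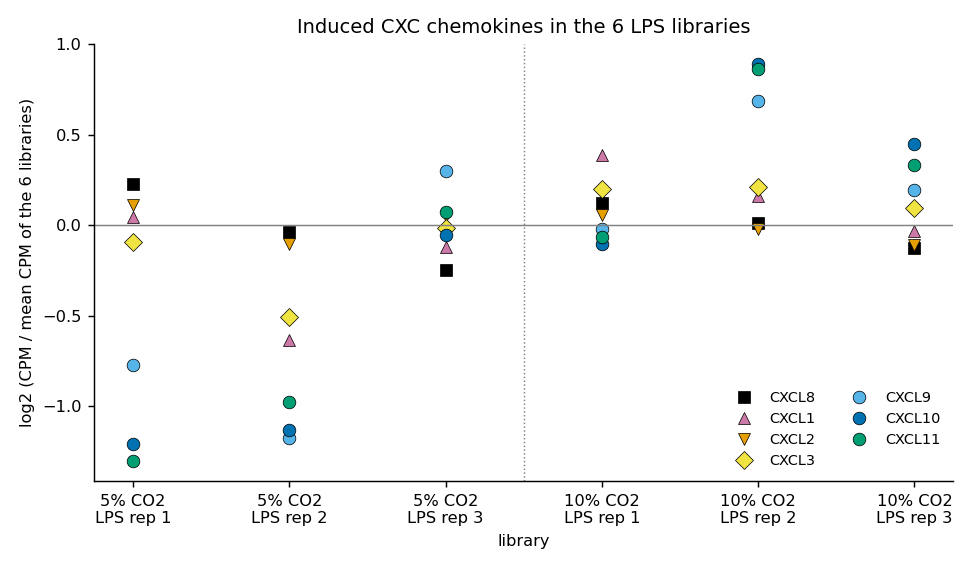
Level of each of the 7 LPS-raised CXC chemokines in each of the 6 LPS libraries, as log2 of its CPM over the gene's mean of the 6. CXCL9, CXCL10 and CXCL11 move together and lie lowest in replicates 1 and 2 of 5% CO2, and replicate 3 of that group lies within the range of the 10% CO2 libraries, while CXCL2 and CXCL8 stay within 0.3 of their means in all 6.

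Among the neutrophil attractants with LPS, CXCL3 had all 3 libraries at 10% CO2 (156 to 170 CPM) above all 3 at 5% CO2 (103 to 145 CPM). It was the only fitted member with that pattern, which 16.2% of all tested genes showed. The log2 change of CXCL3 was 0.36 ± 0.13 (SE, edgeR adjusted p = 0.0988). CXCL1 had 0.39 ± 0.15 (0.129), with libraries that overlapped. CXCL8 (0.01 ± 0.18, 0.978) and CXCL2 (-0.05 ± 0.12, 0.842) had values near 0, smaller than their standard errors. CXCL16 was the only fitted member with all 3 libraries lower at 10% CO2 with LPS, as 15.2% of all genes were, and its log2 change was -0.65 ± 0.31 (0.201).

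**Figure D5:**
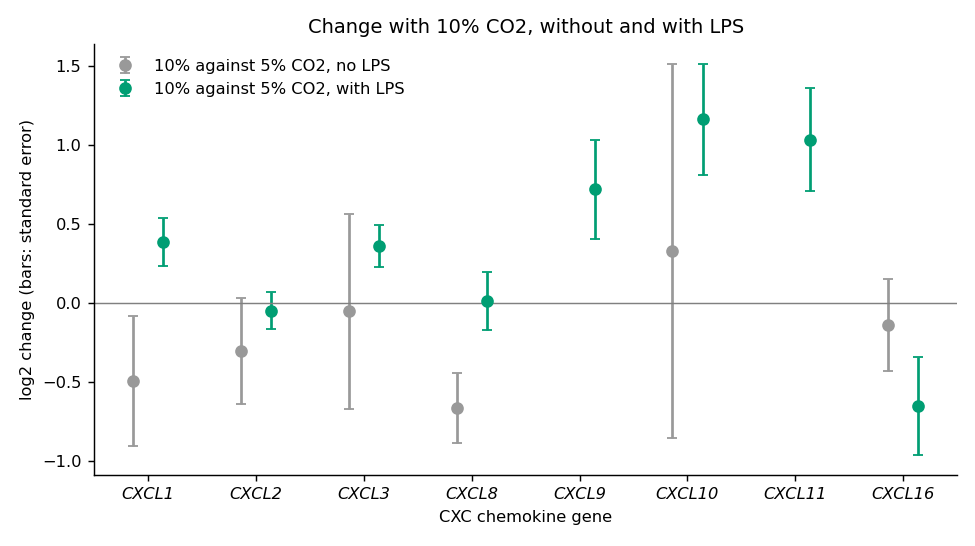
Fitted log2 change from 5% to 10% CO2 of the CXC chemokines, without LPS and with LPS, with bars of 1 standard error. With LPS the CXCR3 ligands lie from 0.72 to 1.16 and CXCL8 and CXCL2 within 0.05 of 0. CXCL9 and CXCL11 have no value without LPS because both groups were at or under 3 counts.

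The difference of the LPS effect between CO2 levels was tested as an interaction. It was called for 0 of the 8 members by edgeR and 0 by DESeq2, 1 had an unadjusted p under 0.05, and 0.0244% of all genes were called by edgeR. CXCL8 was the member with the smallest p, with a log2 difference of 0.68 ± 0.29 (SE, edgeR adjusted p = 0.788), and CXCL1 followed with 0.88 ± 0.44 (0.845). The larger folds with LPS at 10% CO2 given above are therefore not shown to differ from those at 5% CO2. Averaged over the states with and without LPS, 10% against 5% CO2 gave 0 calls among the 8 by edgeR, 1 unadjusted p under 0.05 and 1 call by DESeq2, both for CXCL8, while edgeR called 16.8% of all genes. The averaged change of CXCL8 was -0.33 ± 0.14 (edgeR adjusted p = 0.147, DESeq2 adjusted p = 0.0498). Without 5% CO2 replicate 3 it was -0.44 with an edgeR adjusted p of 0.0088. Leaving out that library, the lowest for CXCL8 at 5% CO2, must widen the averaged difference too.

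Ratios between members within a library do not depend on its depth. Per length, CXCL1 over CXCL2 was 1.20, 0.865 and 1.11 at 5% CO2 with LPS and 1.58, 1.42 and 1.32 at 10% CO2 with LPS. CXCL3 over CXCL2 was 0.336, 0.292 and 0.370 against 0.430, 0.456 and 0.447. In both ratios all libraries at 10% CO2 lay above all at 5% CO2, and the exact two-sided permutation test gave p = 0.1, the smallest that 3 against 3 allows (0.3 adjusted over the 6 ratios computed). CXCL11 over CXCL10 was 0.0456 ± 0.0042 (SD, n = 3) at 5% CO2 with LPS and 0.0426 ± 0.0023 at 10% CO2 with LPS, so the pair kept nearly the same proportion while CXCL10 itself ranged from 89.6 to 385 CPM. The exact permutation p of that ratio was 0.3 (adjusted 0.36). CXCL10 over CXCL8 was 0.0431, 0.0547 and 0.133 against 0.0997, 0.214 and 0.173, with overlap and an exact p of 0.2 (adjusted 0.3). CXCL8 over CXCL2 gave an exact p of 0.9 and CXCL9 over CXCL10 one of 0.2, adjusted to 0.9 and 0.3. The ratios were chosen after the values had been seen.

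Receptors of the CXCR and atypical (ACKR) families were expressed at low levels in the same cells. Of 9 such receptors listed, 6 were in the fit, and ACKR1 never exceeded 3 counts. The list is wider than the receptors of the members, as it holds ACKR2 and CXCR4, whose ligands are given below. CXCR1, a receptor of CXCL8, had at most 4 counts in a library. At 5% CO2, LPS raised 2 and lowered 3 of the 6, and at 10% CO2 it raised 0 and lowered 3, while 13.1% and 18.6% of all genes were called lower. CXCR2, the receptor of the neutrophil attractants, had 14.9, 18.9 and 18.2 CPM at 5% CO2 and 4.73, 6.36 and 5.07 CPM with LPS there. It fell by 1.68 ± 0.18 on the log2 scale (SE, edgeR adjusted p = 7.59e-07) at 5% CO2 and by 2.08 ± 0.19 (6.06e-08) at 10% CO2. CXCR2 mRNA and its ligands' mRNAs thus changed in opposite directions with LPS. ACKR2, a scavenger of CC chemokines, fell by 1.38 ± 0.19 (1.47e-05) and by 1.69 ± 0.19 (1.2e-06). CXCR4, the receptor of CXCL12, rose by 0.67 ± 0.13 (8e-04) at 5% CO2. The remaining calls at 5% CO2, named after their values were seen, were ACKR3, an atypical receptor of CXCL11 and CXCL12, with 2.16 ± 0.58 (0.0221), and CXCR3 with -0.58 ± 0.20 (0.0433). ACKR3 was not called without 5% CO2 replicate 2 (0.0849) or replicate 3 (0.0865), without the low-count filter (0.077) or with only the compared groups (0.0587). CXCR3 was not called with DESeq2 (0.0588) or without 7 of the 12 libraries in turn: 5% CO2 replicates 1 and 2 (0.0683 and 0.205), all 3 of 5% CO2 with LPS (0.099, 0.0619 and 0.144), 10% CO2 replicate 2 (0.0559) and 10% CO2 with LPS replicate 1 (0.0548). The median log2 change of the 6 was -0.32 at 5% CO2 and -0.28 at 10% CO2, beside -0.01 and -0.02 over all genes.

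CXCR3, the receptor of CXCL9, CXCL10 and CXCL11, was the 1 receptor of 6 called between CO2 levels with LPS. It had 8.26, 9.15 and 7.53 CPM at 5% CO2 with LPS and 3.84, 2.81 and 5.44 CPM at 10% CO2 with LPS, and the groups did not overlap. Among all genes, 4.46% were called lower in this comparison and 4.29% higher. CXCR3 fell by 1.03 ± 0.22 on the log2 scale (SE, edgeR adjusted p = 0.0104). That call was lost on leaving out 5% CO2 with LPS replicate 2 (0.0533) or 10% CO2 with LPS replicate 2 (0.0763). Without LPS 0 receptors were called between CO2 levels. With LPS at 10% CO2 against 10% CO2 alone, CXCR3 fell by 0.90 ± 0.22 (0.00392). Averaged over LPS, CXCR3 fell by 0.86 ± 0.15 (0.00134) and CXCR6, the receptor of CXCL16, rose by 1.42 ± 0.39 (0.019). These were the only calls among the 6 receptors in that contrast, where 16.8% of all genes were called. CXCR6 had only 1 to 16 counts a library. Its call was lost without 5% CO2 with LPS replicate 1 (0.0548), 10% CO2 replicate 2 (0.0619) or 10% CO2 with LPS replicate 2 (0.0619).

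Of 17 listed proteases and proteoglycans that cut, shed or hold CXC chemokines, 16 were in the fit. LPS raised 4 of them at each CO2 level, beside 11.8% and 16.6% of all genes called higher, and lowered 0 at 5% and 2 at 10% CO2, beside 13.1% and 18.6% called lower. The list's log2 changes had medians of 0.09 and 0.05 beside -0.01 and -0.02 over all genes. SDC4, a heparan sulfate proteoglycan, rose by 4.18 ± 0.18 on the log2 scale (SE, edgeR adjusted p = 1.32e-10) at 5% CO2 and 4.90 ± 0.19 (2.28e-11) at 10% CO2. ADAM17, a sheddase of membrane proteins, rose by 0.58 ± 0.11 (8.41e-04) and 0.94 ± 0.12 (2.84e-06). MMP1, a secreted collagenase, rose at both CO2 levels (1.96e-05 and 9.75e-06). Its libraries had 1 to 3 counts at 5% CO2 and 3 to 6 at 10% CO2, against 19 to 46 and 27 to 52 with LPS. MMP8, a neutrophil collagenase, and the lowered syndecans SDC1 and SDC3 were the remaining calls, named after their values were seen. MMP8 was called higher at both CO2 levels (0.00349 and 6e-05), from 1 count in each library at 5% CO2 and 0, 0 and 5 counts at 10% CO2 to 9 to 18 and 14 to 47 counts with LPS, and its fitted change is not given because it rests on so few counts. At 10% CO2 SDC1 had -1.27 ± 0.45 (0.0335) and SDC3 -0.55 ± 0.17 (0.0235). SDC1 was not called with DESeq2 (0.0975), without the low-count filter (0.059), with the GC correction (0.0599), or without 10% CO2 replicate 2 (0.11) or 3 (0.119) or 10% CO2 with LPS replicate 1 (0.155). SDC3 was not called with the GC correction (0.179) or without 10% CO2 replicate 1 (0.0902) or 3 (0.0903) or 10% CO2 with LPS replicate 2 (0.0939) or 3 (0.0742). Between CO2 levels 0 of the 16 were called, without LPS or with it.

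All 11 listed NF-kappaB subunits and feedback regulators rose with LPS at both CO2 levels, beside 11.8% and 16.6% of all genes called higher. Their median log2 changes were 3.20 and 3.71, beside -0.01 and -0.02 over all genes. NFKBIZ, a nuclear co-activator of secondary response genes, went from 4.92 to 832 CPM at 5% CO2, a log2 change of 7.40 ± 0.12 (SE, edgeR adjusted p = 7.43e-19), near that of the chemokines. NFKBIA, the inhibitor IkappaB-alpha, rose by 4.04 ± 0.12 (4.73e-15) and NFKB1 by 3.20 ± 0.12 (3.81e-13). At 10% CO2, RELB rose by 4.05 ± 0.13 (4.21e-14). Between CO2 levels without LPS, 2 of the 11 were called, both lower, as were 0.665% of all genes: BCL3 fell by 0.86 ± 0.17 (0.0222) and RELB by 0.61 ± 0.13 (0.0244). The call of BCL3 was lost without 5% CO2 replicate 1 (adjusted p = 0.119), 5% CO2 replicate 2 (0.0778) or 10% CO2 replicate 2 (0.15). That of RELB was lost without the same 3 libraries (0.138, 0.0778 and 0.177), without 10% CO2 replicate 1 (0.0523), and when only the compared groups were fitted (0.0701). With LPS, 8.75% of all genes were called between CO2 levels, and 4.29% were called higher. NFKB1 was the 1 gene of the 11 called there, a share near that of all genes. It was higher at 10% CO2 by 0.41 ± 0.11 (0.0301). It was not called without 5% CO2 with LPS replicate 2 (0.13), 10% CO2 with LPS replicate 1 (0.103) or replicate 2 (0.106), or with only the compared groups (0.0984). Averaged over LPS, 3 of the 11 were called, all lower at 10% CO2, beside 16.8% of all genes called. They were BCL3, RELA and RELB, and the call of RELB was lost under 9 of the 12 omissions.

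Of 15 listed genes of interferon induction and signalling, which act on the CXCR3 ligand genes, LPS raised 8 and lowered 1 at 5% CO2, beside 11.8% and 13.1% across the whole table. At 10% CO2 it raised 10 and lowered 3, beside 16.6% and 18.6%, so the share lowered was near that of all genes. The medians were 0.37 and 0.59 on the log2 scale. TICAM1, the TRIF adaptor, rose by 2.48 ± 0.13 (SE, edgeR adjusted p = 1.76e-11) at 5% CO2 and 2.50 ± 0.13 (1.33e-11) at 10% CO2, and IFNGR2, a chain of the interferon gamma receptor, by 1.46 ± 0.13 (1.38e-07) and 1.60 ± 0.13 (3.17e-08). IRF5, a transcription factor of inflammatory and interferon genes, fell by 0.96 ± 0.10 (3.52e-07) and 1.37 ± 0.10 (1.95e-09). At 10% CO2 the other falls, named after their values were seen, were IFNGR1 (-0.49 ± 0.12, 0.00451) and IRF8 (-0.43 ± 0.09, 0.00134). IFNB1, named here after its values were seen as the interferon that TRIF signalling is known to induce, had 0 counts in all 3 libraries at 5% CO2 and 3, 0 and 1 at 10% CO2. With LPS it had 10, 19 and 15 counts at 5% CO2 and 12, 19 and 20 at 10% CO2. IFNB1 counts thus overlapped between the CO2 levels with LPS. A link between IFNB1 and the levels of the CXCR3 ligands was not tested. Between CO2 levels with LPS, 8.75% of all genes were called, and 4.46% were called lower. IRF5 was the 1 gene of the 15 called in that comparison, a share near that of all genes. It was lower at 10% CO2, by -0.40 ± 0.10 (0.0187), and was not called without 5% CO2 with LPS replicate 1 (0.0812) or replicate 2 (0.105) or without 10% CO2 with LPS replicate 2 (0.12).

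Chemokine mRNAs carry AU-rich elements and are known to be short-lived, and 16 genes that act on mRNA stability were listed. LPS raised 6 and lowered 1 of them at 5% CO2, beside 11.8% called higher and 13.1% called lower across the whole table. At 10% CO2 it raised 8 and lowered 1, beside 16.6% and 18.6%. ZC3H12A (regnase-1), a nuclease that degrades inflammatory mRNAs, rose by 5.38 ± 0.18 on the log2 scale (SE, edgeR adjusted p = 3.39e-12) at 5% CO2 and 5.69 ± 0.18 (1.63e-12) at 10% CO2. ZFP36L2 fell by 1.67 ± 0.09 (4.66e-11) and 1.74 ± 0.09 (2.19e-11). ZFP36 (tristetraprolin), which promotes decay of mRNAs with AU-rich elements, was lower at 10% CO2 both without and with LPS. Its means were 82.2 ± 9.91 against 59.8 ± 7.66 CPM (SD, n = 3) without LPS and 152 ± 17.04 against 107 ± 4.21 CPM with LPS, and the libraries did not overlap in either state, as was so for 10.2% and 15.2% of all genes in this direction. The log2 changes were -0.46 ± 0.11 (SE, edgeR adjusted p = 0.0432) and -0.51 ± 0.11 (0.00833). With LPS the call was lost without 5% CO2 with LPS replicate 2 (0.0582). Without LPS it was lost under 8 of the 12 omissions of a library: 5% CO2 replicates 1 and 2 (0.149 and 0.148), 10% CO2 replicates 1 and 2 (0.0675 and 0.257), 5% CO2 with LPS replicate 1 (0.0528), all 3 of 10% CO2 with LPS (0.0571, 0.053 and 0.0692), and also with only the compared groups (0.11). Averaged over LPS, ZFP36 was called lower at 10% CO2 under each of the 12 omissions. Its log2 change there ran from -0.54 to -0.43 and its edgeR adjusted p from 2.17e-04 to 0.00344. In that contrast 1 of the 16 listed genes was called higher and 4 lower, beside 16.8% of all genes called. Of these, the calls of KHSRP and TIA1 were lost under 10 and 7 omissions. ARID5A, an RNA-binding protein that stabilises inflammatory mRNAs, was lower at 10% CO2 than at 5% CO2 among cells given LPS (38.5 against 67.4 CPM), with a log2 change of -0.81 ± 0.20 (0.0279). That call was lost without 5% CO2 with LPS replicate 1 (0.0879) or replicate 2 (0.0759), without 10% CO2 with LPS replicate 2 (0.132) or replicate 3 (0.0641), and with only the compared groups (0.0565).

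The genes outside the set whose pattern over the 4 group means was most like that of a member were ranked by the root mean square difference of centred log2 CPM, among 10811 genes whose mean CPM was 5 or more. For CXCL8 they were IL1A (0.191), CCL3 (0.226) and KCNJ2 (0.248). For CXCL10 they were IL12B (0.15), SHROOM3 (0.168) and CCL20 (0.369). IL12B, the p40 chain of interleukin-12, averaged 57.6 CPM at 5% CO2 with LPS and 101 CPM at 10% CO2 with LPS, beside 128 and 287 CPM for CXCL10. For CXCL16 they were BCKDHA (0.028), TCTN2 (0.036) and APC2 (0.042). The measure rests on 4 means over 12 libraries and is a description.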

How the data were processed

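RNA was measured in 12 libraries of THP-1 cells with a non-target shRNA, 3 in each of 4 groups taken from the sample titles. The deposited values are raw read counts per Ensembl gene; per the submitters' processing notes the tools were Trimmomatic 0.36, STAR 2.5.2b and featureCounts of Subread 1.5.2 on GRCh38. Settings for strand and for multi-mapping reads, and the annotation's release, are not stated in those notes or the labels. Every count column was used, with 0 left out, and 98.1% of the 57500 identifiers had a symbol. The labels do not call the replicates separate cultures, so the p-values reflect the spread between these libraries alone, which may be technical. Within each group, every pair of libraries differed beyond sampling noise (8.91 to 29.2 per degree of freedom in a chi-square test), and each was counted as 1 sample.

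The main test was edgeR 4.0.16 (R 4.3.3): the filterByExpr filter, which kept 16402 genes, TMM normalization and the robust quasi-likelihood F test of 4 group means over all 12 libraries, with p adjusted over all genes (Benjamini-Hochberg, called under 0.05). The common biological coefficient of variation was 10.7%. Levels between genes are CPM per kb of exon. A floor of 3 counts a library is 0.135 to 0.175 CPM before TMM scaling. Exact 95% intervals of low-count ratios and floors cover only counting error, as no molecular identifiers were used. Alternatives were DESeq2 1.42.0, RLE size factors, no low-count filter, a replicate block, a GC correction, both together, only the compared groups, and leaving out each library. The fits were tested on simulated counts. Promoters are from RefSeq (GRCh38.p14) and equal the reference genome at their positions.

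The members and gene lists were chosen with earlier results of these data known. Named genes are the 9 members, the called genes of each list and contrast with the 3 smallest p, and the 3 genes most like CXCL8, CXCL10 and CXCL16. Any other gene is named as a marker or neighbour, or is said to have been named after its values were seen. One result that this rule would name is not reported here.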

Additional observations from a re-analysis of the deposited data

How the results depend on the processing

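The call of 7 members as higher with LPS, at 5% and at 10% CO2, held under all alternatives run, including the omission of each library. CXCL16 stayed uncalled with LPS, and its value at 5% CO2 ran from -0.22 to 0.39 on the log2 scale when 1 library was left out. For CO2 without LPS, edgeR called 240 genes and no member; the number of genes was 701 with DESeq2, 572 without the low-count filter, 848 with the GC correction, 71 with only the compared groups and 0 to 511 when 1 library was left out. DESeq2 called 1 member and the omissions 0 to 1 (CXCL8, -0.89 to -0.38). Omissions moved CXCL3 from -0.72 to 0.34, CXCL10 from -0.23 to 0.75 and CXCL16 from -0.38 to 0.23. For CO2 with LPS, 1435 genes and 0 members were called; DESeq2 called 2 members, the fit without the low-count filter 3 (CXCL1, adjusted p = 0.00458, CXCL3, 0.0221, and CXCL11, 0.0291), and omissions gave 271 to 1804 genes and 0 to 3 members. The value of CXCL8 there was -0.002 without the filter, -0.182 with the GC correction, and -0.093 to 0.144 under omissions. Omissions ranged from 0.46 to 1.28 for CXCL9, 0.90 to 1.64 for CXCL10 and 0.77 to 1.56 for CXCL11. For the interaction, 4 genes were called, against 1 with RLE size factors, 53 with DESeq2, 108 without the filter and 1 to 37 under omissions, where CXCL2 ran from -0.01 to 0.69. For CO2 averaged over LPS, 2748 genes were called and 1664 to 3005 under omissions; DESeq2 called 1 member and omissions 0 to 1, with CXCL1 from -0.17 to 0.071 and CXCL3 from -0.18 to 0.35. The cause of these shifts was not tested. DESeq2 gave no adjusted p for CXCL16 and CXCL9 without LPS. Depth limits CXCL5, CXCL9 and CXCL11 without LPS, where a change between CO2 levels was not detectable.

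The replicate numbers were not taken to pair the samples, since no label says that a number marks a shared batch and not every pair of same-numbered libraries correlated at over 0.1 in its deviations from the group means across genes. The correlations ran from -0.359 to 0.584 and were over 0.1 in 12 of 18 pairs; those between libraries numbered 1 ran from 0.25 to 0.584. A library correlated best with its own number in 24 of 36 comparisons with another group, a hint of shared variation from the data and not from the design. With the replicate block, 699 genes were called for CO2 without LPS, with 1 member (CXCL8, adjusted p = 0.0121), 3 members for CO2 with LPS (CXCL1, 0.0221, CXCL10, 0.0166, and CXCL11, 0.00785), 11 genes for the interaction and 1 member for CO2 averaged over LPS (CXCL8, 0.0109). The replicate block with the GC correction gave 1989 genes for CO2 without LPS, 2955 for CO2 with LPS with 2 members (CXCL10, 0.041, and CXCL11, 0.0244; CXCL8 at -0.165), 33 for the interaction and 4634 for CO2 averaged over LPS.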
